A study of Mus musculus with 12 samples.

Results

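Of 12 osteoclast libraries, the 6 from female mice were divided by the level of 5 interferon-stimulated genes into 3 interferon-high and 3 interferon-low cultures, and the rest of the transcriptome was then described between them. The rule took the mean log2(FPKM + 1) of Ifit1, Ifit3, Isg15, Irf7 and Oasl2, where FPKM is the number of fragments divided by the length of the gene and by the depth of the library. The interferon-high set is female control 2, female knockout 1 and female knockout 2, and the interferon-low set is female control 1, female control 3 and female knockout 3. Genes with an FPKM of 1 or more in at least 3 of the 6 libraries were kept, which gave 11674 of the 55806 genes in the table.

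All 12 libraries came from bone marrow monocytes of mice 8 to 12 weeks old, cultured with M-CSF and RANKL and collected at differentiation day 4. The genotype labels are Control and Per1 knockout, with 3 libraries of each genotype in each sex, and each library carries a batch of the same number as its replicate. The labels name neither the deleted part of Per1 nor a Cre driver, and the library names mark the knockout allele as conditional. The sample titles call the replicates biological, but whether they are separate animals is not stated. A p-value then speaks only of the spread among the libraries, part of which may be technical. Genotypes below are the labelled ones. Per1 was 2.46, 3.33 and 3.03 FPKM in female controls 1, 2 and 3 and 4.04, 3.83 and 2.82 in female knockouts 1, 2 and 3. No female library labelled knockout was thus below all of the female controls, and knockouts 1 and 2 were above all of them.

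Type I interferons are cytokines that bind a shared receptor, IFNAR, and act through a transcription factor complex that includes STAT2 and IRF9 on genes that carry an interferon-stimulated response element. Osteoclasts form when RANKL drives myeloid precursors, through c-Fos and NFATc1, to fuse and to make the acid and the proteases that dissolve bone. In mice, RANKL also induces interferon beta in osteoclast precursors, and interferon beta in turn lowers c-Fos protein and limits osteoclast formation.

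The core of the interferon-stimulated response element can be read in the promoters of some of the genes called higher in the interferon-high set, and those shown were picked because they hold it. They are RefSeq promoters on GRCm38.p6, from 250 bases before to 50 bases after the annotated start, written 5′ to 3′ along the gene. Capitals mark each match to the core of the element, searched as GAAA, any 2 bases and GAAA on either strand, so that a match on the opposite strand reads TTTC, any 2 bases and TTTC. Overlapping matches form 1 run of capitals. Ifit1, a marker of the rule that encodes an RNA-binding antiviral protein, is shown whole and held 2 matches. The other genes are shown as 40 bases around the first match.
Ifit1, chr19:34640639-34640938, plus strand: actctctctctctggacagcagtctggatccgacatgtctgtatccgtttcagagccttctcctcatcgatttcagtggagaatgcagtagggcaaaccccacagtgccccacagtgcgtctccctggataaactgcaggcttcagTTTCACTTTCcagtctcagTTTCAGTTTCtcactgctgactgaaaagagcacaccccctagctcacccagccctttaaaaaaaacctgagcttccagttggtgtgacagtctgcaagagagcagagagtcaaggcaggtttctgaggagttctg
Ifit3, chr19:34583358-34583397, plus strand: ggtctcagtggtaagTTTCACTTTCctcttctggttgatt
Isg15, chr4:156200872-156200911, minus strand: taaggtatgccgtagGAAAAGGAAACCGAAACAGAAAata
Stat2, chr10:128270261-128270300, plus strand: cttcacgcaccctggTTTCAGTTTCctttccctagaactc
Cxcl10, chr5:92349078-92349117, minus strand: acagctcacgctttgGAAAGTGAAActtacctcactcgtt
H2-T22, chr17:36042909-36042948, minus strand: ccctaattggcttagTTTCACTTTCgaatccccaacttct
Ctss, chr3:95526750-95526789, plus strand: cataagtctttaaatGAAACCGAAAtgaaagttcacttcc
Fcgr4, chr1:171018838-171018877, plus strand: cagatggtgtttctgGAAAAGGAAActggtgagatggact
Lgals9, chr11:78984955-78984994, minus strand: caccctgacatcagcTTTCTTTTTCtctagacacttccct

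The first 3 of these genes belong to the rule, Stat2 encodes a subunit of the interferon-activated transcription factor, and Cxcl10 encodes a chemokine for T cells. H2-T22 is an MHC class I gene, Ctss encodes the protease that trims the MHC class II invariant chain, Fcgr4 encodes a receptor for IgG, and Lgals9 encodes galectin 9. Irf7 and Oasl2, the other markers of the rule, had no match to these letters in their window.

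The 5 markers that set the rule are given as values only. Ifit1 was 10.7, 22.5 and 9.75 FPKM in the interferon-low libraries female control 1, female control 3 and female knockout 3, and 77.3, 65.1 and 97.9 FPKM in the interferon-high libraries female control 2, female knockout 1 and female knockout 2. This order of libraries is kept below. Irf7, a transcription factor that amplifies interferon production, was 24.3, 41.6 and 22.99 FPKM in the low set and 212.7, 189.1 and 238.9 FPKM in the high set. Female control 3 was the highest of the low libraries for each of the 5 markers. The score nearest the boundary was 6.67 above it, in female knockout 1, and 5.09 below it, in female control 3, and the 6 male libraries had scores of 3.43 to 4.05.

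**Figure D1:**
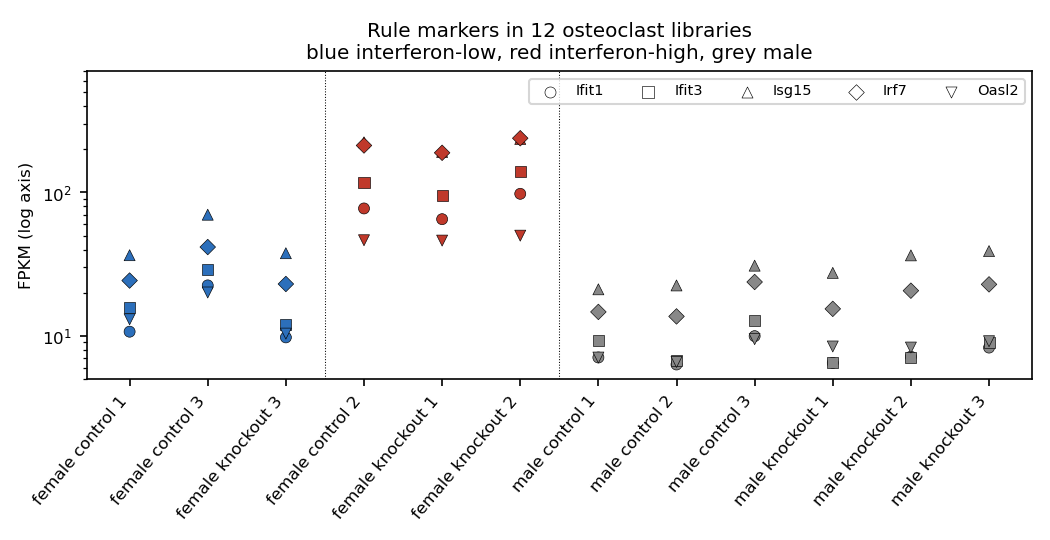
FPKM of the 5 rule markers (log axis) in each of the 12 libraries, with 1 point per gene and library. The 3 interferon-high female libraries lie above all others for every marker, and female control 3 is the highest of the interferon-low libraries.

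The sets overlap with batch in large part and with genotype in part. The high set has 1 control and 2 knockout libraries, and the low set has 2 control and 1 knockout. Both female libraries of batch 2 were high and both of batch 3 were low, so only batch 1 holds one of each, and there the high library is the knockout and the low one the control. Set and genotype cannot be told apart within batch 1. Libraries held 15366600 to 24346288 fragments over genes, and 11207 to 12060 genes per library reached 1 FPKM. The share of fragments on rRNA genes was 1.34% to 1.43% in the high set and 0.560%, 0.632% and 1.57% in the low set, so it was as high in the low knockout 3 as in the high libraries, and its part in the set differences was not tested.

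Because the libraries were chosen on transcript levels of the same samples, no test was made between the sets. A gene is called higher or lower here if all 3 libraries of one set lay beyond all 3 of the other and the difference of the mean log2(FPKM + 1) was at least 0.5. This scale understates differences of genes with low FPKM. By this rule 673 genes were higher (5.76% of the 11674) and 84 were lower (0.72%) in the interferon-high set. At any difference, 2065 genes (17.7%) were separate and higher and 2403 (20.6%) separate and lower, and the median difference over all genes was -0.01. With FPKM rescaled to one sum, the calls were 554 higher and 190 lower, so that 74.5% of calls were higher in place of 88.9%. The lower count moved with single libraries: it was 217 without female knockout 3 and 158 without female control 2, with 81 of the 84 kept in each. The higher count rose there too, to 899 and 850. Without female knockout 2 there were 66 lower genes and 49 of the 84 were kept, and without female control 3 there were 76 and 55. With the difference averaged over the genotypes there were 51, and 47 of the 84 were kept. With the medians of bins of gene length and GC content removed, 52 of the 84 lower and 537 of the 673 higher genes kept the call. Of the 673 higher genes 582 lay outside the interferon lists, and 67 had passed the level filter only through the high set.

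Bulk RNA cannot tell fewer cells of a type from less RNA per cell, which holds for every group of genes below. The cultures carried the transcripts that define osteoclasts in both sets: Ctsk, the collagen-degrading protease cathepsin K, was at 4341 to 7299 FPKM and Acp5, tartrate-resistant acid phosphatase, at 2496 to 3109 FPKM. Gene lists were compared by how many members were called, next to the percentages above, and by their median difference.

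**Figure D2:**
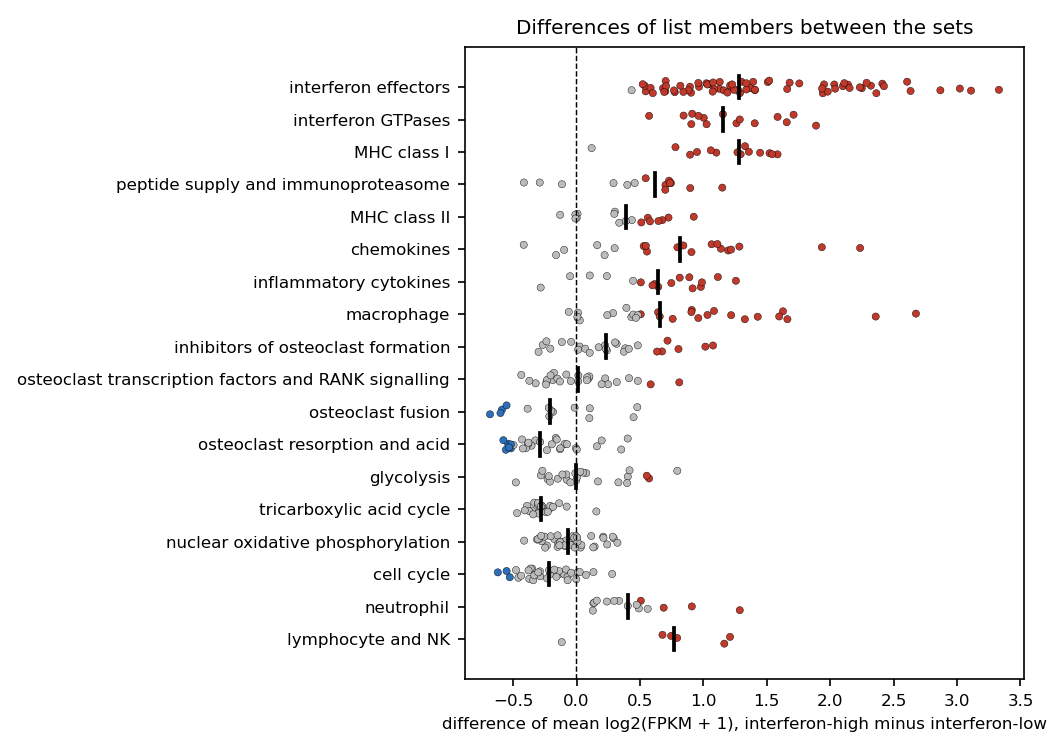
Difference of mean log2(FPKM + 1) between the interferon-high and interferon-low sets (x axis) for each tested member of 18 gene lists, with the list median as a black bar and the median of all 11674 genes as a dashed line. Red points were called higher and blue points lower; the interferon and MHC class I lists lie to the right, and the resorption, fusion and tricarboxylic acid cycle lists have medians left of the line.

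The interferon ligands were barely detected, while nearly all of the response genes were higher in the interferon-high set. Of 20 interferon genes, 16 had no fragment in any of the 12 libraries and none passed the level filter. Ifnb1, which encodes interferon beta, had 4, 4 and 5 fragments in the high libraries, 1, 3 and 0 in the low libraries and 0 in all 6 male libraries. No test was made on these counts, which are within reach of the floor of 3 fragments in every library. Transcripts of the receptor chains differed little: Ifnar1 had overlapping sets with a difference of 0.13, while Stat2 (1.63) and Irf9 (0.75), which encode parts of the activated transcription factor, were called higher.

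Of 73 effector genes, 72 were tested and 71 were called higher, with a median difference of 1.28. The antiviral GTPase Mx1 was 4.51, 8.00 and 4.00 FPKM in the low set and 24.4, 27.8 and 35.5 FPKM in the high set, a difference of 2.25. All 15 tested members of the 17 GTPases of the guanylate-binding and immunity-related families were called higher, with a median of 1.15. Among these 15, 3 had passed the level filter only through the high set. Copies of the Oas1, Slfn, Ifi and Gbp families share sequence, so reads can be split between them and single members are uncertain. Among 20 tested sensors of nucleic acids 9 were called higher, led by Zbp1, a sensor of Z-form nucleic acids, at 7.30, 10.4 and 5.23 FPKM against 36.0, 33.5 and 44.3 FPKM (difference 2.21). Zbp1 was higher in every interferon-high library than in every other library. Tlr7 (1.18) and Tlr9 (1.17), endosomal receptors for RNA and DNA, were also called higher, whereas Mavs and Tbk1, which relay the cytosolic signal, overlapped.

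MHC class I genes were the antigen presentation group that differed most. Of 15 listed genes 14 were tested and 13 were called higher, with a median difference of 1.28. Among the 14, 1 had passed the level filter only through the high set. H2-K1, a classical class I heavy chain, was 408, 438 and 360 FPKM in the low set and 831, 788 and 976.5 FPKM in the high set, a difference of 1.10. B2m, the light chain shared by all class I molecules, was 2198, 2349 and 1827 FPKM in the low set and 3819, 3242 and 3858 FPKM in the high set (0.78). The lowest high library lay above the highest low library for both chains. Nlrc5, the transactivator of class I genes, was 3.83, 4.27 and 4.43 FPKM against 10.5, 12.8 and 13.7 FPKM (1.36). The non-classical H2-Q and H2-T genes had differences of 1.06 to 1.58, but their sequences are close and reads may be split between them. H2-M2 overlapped (0.12).

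Peptide supply to class I was higher in part. Of 14 genes 8 were called higher, with a median of 0.62. Tap1, a subunit of the peptide transporter, was 22.5, 27.4 and 23.9 FPKM in the low set and 54.9, 50.2 and 62.3 FPKM in the high set, a difference of 1.15. The immunoproteasome subunits Psmb9 (0.90), Psmb10 (0.74) and Psmb8 (0.70) and the loading factor Tapbp (0.74) were called higher as well. Calr and Canx, the general chaperones that fold class I heavy chains in the endoplasmic reticulum, were separate in the other direction, by -0.29 and -0.42. Tap1 and Psmb9 are transcribed in opposite directions from 1 shared region, and the Tap1 promoter is shown because both genes were called higher. It held no match to the core of the element.
Tap1, chr17:34187306-34187605, plus strand: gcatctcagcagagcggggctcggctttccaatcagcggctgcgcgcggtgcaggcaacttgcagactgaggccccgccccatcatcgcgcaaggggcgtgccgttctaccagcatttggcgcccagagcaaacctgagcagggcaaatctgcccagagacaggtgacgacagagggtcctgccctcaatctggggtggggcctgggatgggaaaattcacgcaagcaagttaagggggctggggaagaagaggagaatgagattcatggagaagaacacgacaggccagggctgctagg

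MHC class II genes differed less, and their regulators did not separate. Of 17 genes 7 were called higher, 12 were separate and higher, and the median was 0.39. Among the 17, 2 had passed the level filter only through the high set. H2-Ab1, a class II beta chain, was 47.6, 41.4 and 59.3 FPKM in the low set and 85.7, 74.2 and 85.1 FPKM in the high set (0.72). Cd74, the invariant chain, was 283, 278 and 305 FPKM against 422, 355 and 360 FPKM, a difference of 0.39 that was separate but under 0.5. Ciita, the master regulator of class II transcription, was 2.04, 2.49 and 3.02 FPKM against 2.60, 2.24 and 2.72 FPKM, so its sets overlapped (0.01), as did Rfx5, Rfxap and Rfxank. The member with the largest difference was Ctss, at 1372, 1280 and 1009 FPKM against 2373, 2060 and 2480 FPKM (0.92). Among 12 tested genes of costimulation 3 were called higher: Cd86 (0.93) and Cd40 (0.91), which act on T cells, and Lgals9 (1.11). Over all 45 antigen presentation genes tested, 28 were called higher and 0 lower. With 1 library left out at a time, 26 to 28 of those 28 kept the call.

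**Figure D3:**
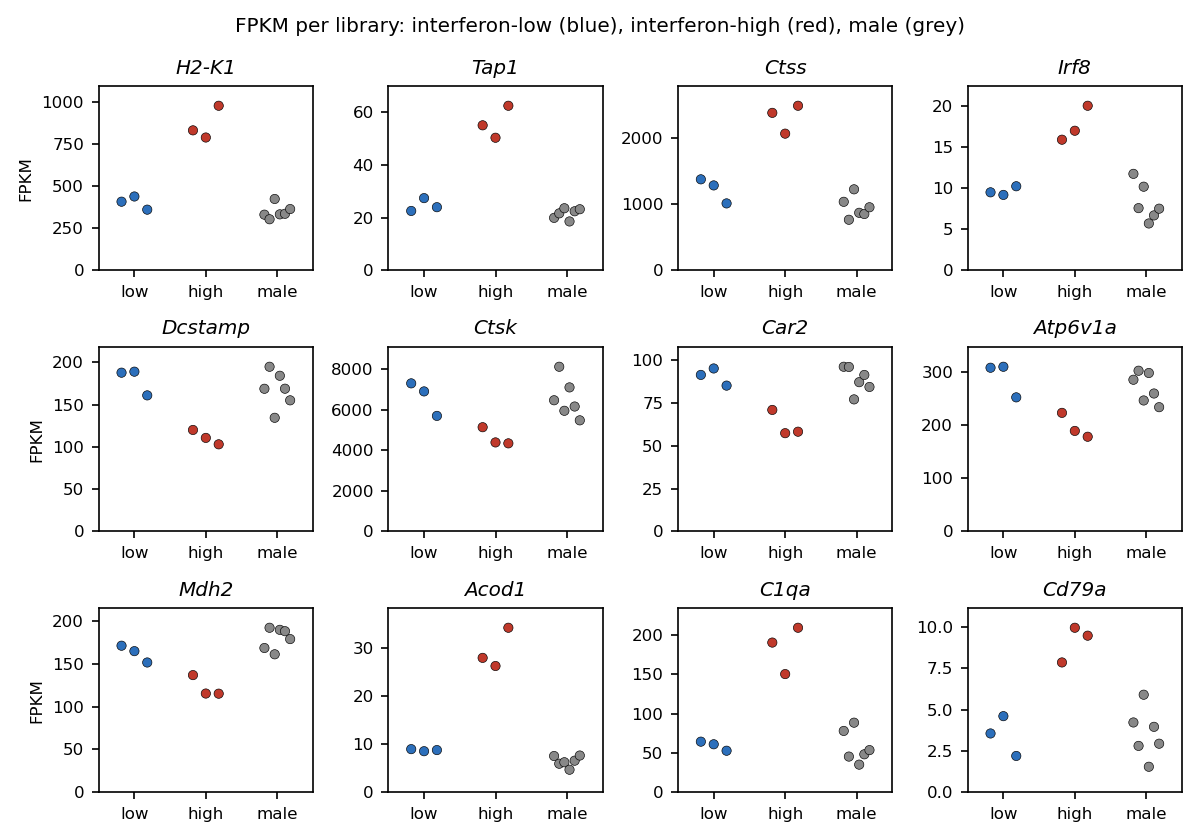
FPKM (linear axes from 0) of 12 genes, with 1 point per library, for the 3 interferon-low, 3 interferon-high and 6 male libraries. The high libraries do not overlap the low ones in any panel, and they lie above them for H2-K1, Tap1, Ctss, Irf8, Acod1, C1qa and Cd79a and below them for Dcstamp, Ctsk, Car2, Atp6v1a and Mdh2.

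Osteoclast genes went the other way as a group, with smaller differences. Of 70 tested genes 10 were called lower and 2 higher, 31 were separate and lower and 13 separate and higher, and the median was -0.17. Among genes of cell fusion, Dcstamp, the transmembrane protein required for precursors to fuse, was 188, 189 and 161 FPKM in the low set and 120, 111 and 103 FPKM in the high set, a difference of -0.68. Atp6v0d2, the proton pump subunit that also takes part in fusion, was 426, 407 and 330 FPKM against 292, 239 and 241 FPKM (-0.59). The high libraries were below all low libraries for both genes. They were also below all 6 male libraries, at 134 to 195 FPKM for Dcstamp and 330 to 415 FPKM for Atp6v0d2. Cd109 (-0.60) and Sh3pxd2a (-0.55), a scaffold of podosomes, were called lower too, and Ocstamp, the partner of Dcstamp in fusion, was separate by -0.19. Of the 15 listed fusion genes 14 were tested and 4 were called lower, with a median of -0.21.

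Resorption genes did not all differ alike. Of 30 listed genes 29 were tested, 6 were called lower, none was called higher, and the median was -0.29. Ctsk was 7299, 6902 and 5695 FPKM in the low set and 5138, 4387 and 4341 FPKM in the high set, a difference of -0.52. Car2, the carbonic anhydrase that makes protons for acid secretion, was 91.5, 95.2 and 85.2 FPKM against 71.0, 57.4 and 58.3 FPKM (-0.54). Both genes were lower in every high library than in every low one. Among subunits of the proton pump, 5 of 6 in the V1 sector, which burns ATP, were separate and lower, with Atp6v1a at -0.56 and Atp6v1c1 at -0.58. The V0 sector, which carries protons across the membrane, had 1 of 5 separate and lower, Atp6v0d2, and 2 separate and higher. Tcirg1, the osteoclast V0 subunit, was 310, 313 and 334 FPKM against 337, 316 and 305 FPKM, and the chloride exchanger Clcn7 overlapped too. Acp5 overlapped as well, at 2902, 2860 and 2944 FPKM against 3109, 2496 and 2588 FPKM. Mmp9, a gelatinase, was separate by -0.33, and Itgav and Itgb3, which form the vitronectin receptor, were separate by -0.52 and -0.23.

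The calls among osteoclast genes were close to the threshold and depended on the libraries. Averaged over the genotypes, 3 of the 10 lower genes kept the call, namely Cd109, Dcstamp and Sh3pxd2a. With 1 library left out, 4 to 10 of the 10 kept it, the fewest without female knockout 2. Without female control 3 the number was 6, and without female knockout 1 it was 7. Lower calls also moved with GC content over protein-coding genes outside the interferon lists, with 30 in the lowest quartile and 1 in the highest. The part of GC content and gene length in the osteoclast calls was not tested. Among the control libraries alone the median of the resorption list was -0.15, and among the knockout libraries alone it was -0.29. In batch 1 alone, which is female knockout 1 against female control 1, the difference of Dcstamp was -0.76 and that of Car2 -0.66. Set and genotype cannot be told apart in these values.

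Genes of RANK signalling and its transcription factors did not differ in 1 direction as a list: of 27 tested, 2 were called higher and none lower, 10 were separate and lower and 7 separate and higher, and the median was 0.01. The smaller groups below were picked from it after the values were seen. Tnfrsf11a, which encodes RANK, the receptor of RANKL, was 38.4, 39.1 and 33.1 FPKM in the low set and 32.2, 31.1 and 29.8 FPKM in the high set (-0.24). Nfatc1, the main transcription factor of osteoclasts, was 56.2, 57.0 and 61.7 FPKM against 49.3, 48.7 and 41.4 FPKM (-0.32). Prdm1, which encodes the repressor Blimp1 that silences inhibitors of osteoclast formation, differed by -0.44, and Fos was separate in the other direction (0.23). Of 7 genes for RANK, TRAF6, Src and some of the transcription factors in the list, 6 were separate and lower, and none was called. Trem2 was 40.8, 31.4 and 35.2 FPKM against 53.6, 50.6 and 57.5 FPKM (0.58), and its signalling partner Tyrobp, which encodes DAP12, was separate by 0.48. Of 6 genes for these adaptors and receptors 5 were separate and higher, and Oscar overlapped. The other gene called higher was Sirpb1a (0.81). Csf1r, the receptor of M-CSF, overlapped between the sets.

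Inhibitors of osteoclast formation included 6 of 26 tested genes that were called higher and none that was called lower, with a median of 0.23. Among the 26, 1 had passed the level filter only through the high set. Irf8, a myeloid transcription factor that binds NFATc1 and restrains it, was 9.48, 9.17 and 10.2 FPKM in the low set and 15.9, 17.0 and 19.99 FPKM in the high set (0.80). The high libraries lay above all 6 male libraries, at 5.70 to 11.7 FPKM, as well. The others were Klf2 (1.08), Cebpb (1.02), Id1 (0.72), Id3 (0.67) and Zfp36 (0.63), which encode 4 transcriptional regulators and an RNA-binding protein that destabilises cytokine transcripts. Tnfaip3 and Cyld, which remove ubiquitin chains in NF-kB signalling, were separate and lower by -0.27 and -0.24.

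Central metabolism showed small differences in 1 pathway more than in the others. Of 25 genes of the tricarboxylic acid cycle and its entry points, 19 were separate and lower, none was separate and higher, and none reached 0.5, against 20.6% of all genes separate and lower. The median was -0.28. Mdh2, mitochondrial malate dehydrogenase, was 171, 165 and 151 FPKM in the low set and 137, 115 and 115 FPKM in the high set (-0.41). Idh3a, a subunit of isocitrate dehydrogenase, was 30.3, 31.0 and 27.8 FPKM against 21.4, 21.99 and 20.1 FPKM (-0.47). All low libraries were above all high libraries for both genes, and Sdha, of succinate dehydrogenase, differed by -0.37. Glycolysis had a median of -0.00 over 25 genes, with 4 separate and higher and 6 separate and lower. Among the 25, 1 had passed the level filter only through the high set. Hk3, a hexokinase of myeloid cells, was 31.5, 29.4 and 32.8 FPKM against 46.6, 44.5 and 49.6 FPKM (0.57), and Ldhb differed by -0.48. Gapdh, at 2.90 to 4.13 FPKM in the low set and 2.01, 37.8 and 3.09 FPKM in the high set, has many pseudogene copies and its values are uncertain.

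Oxidative phosphorylation did not share the level of the tricarboxylic acid cycle. Of 40 nuclear genes 10 were separate and lower and 5 separate and higher, none reached 0.5, and the median was -0.07. In controls alone this median was 0.01 and in knockouts alone -0.11. Length and base composition moved with the set difference at this size: over protein-coding genes outside the interferon lists, the median difference was 0.06 in the shortest quartile of gene length and -0.07 in the longest. It was -0.09 in the quartile of lowest GC content and 0.10 in the highest. Calls moved as well: from the lowest to the highest GC quartile, 30, 22, 9 and 1 genes were called lower and 85, 81, 115 and 150 higher. From the shortest to the longest quartile, 216, 113, 71 and 31 were called higher and 20, 12, 13 and 17 lower. With the medians of length and GC bins removed, the tricarboxylic acid cycle had a median of -0.24.

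**Figure D4:**
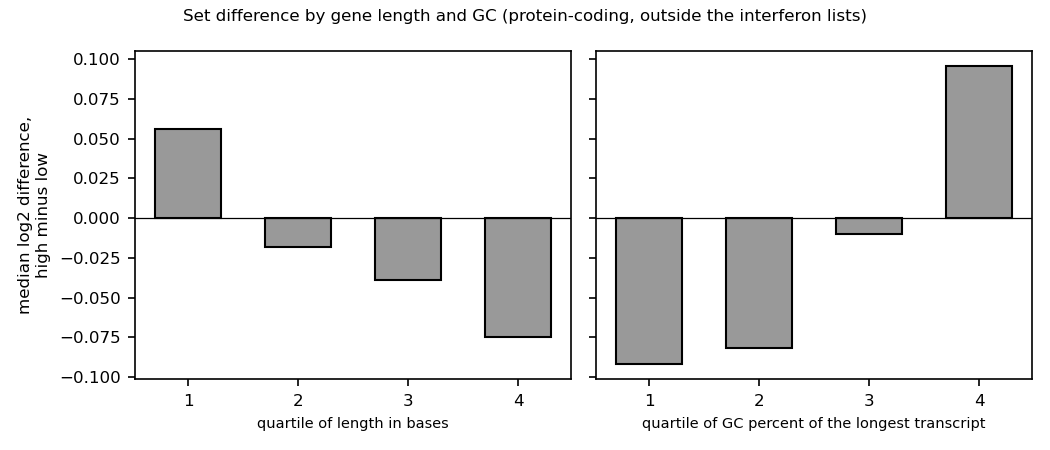
Median log2 difference between the interferon-high and interferon-low sets (bars from 0) by quartile of gene length (left) and of GC content (right) for protein-coding genes outside the interferon lists, with quartile 1 the lowest. The bars fall from 0.06 to -0.07 with length and go from -0.09 to 0.10 with GC content.

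Genes of amino acid and immune metabolism were mixed, with a median difference of 0.01 over 25 tested genes, of which 9 were separate and higher and 5 separate and lower. Acod1, the enzyme that makes itaconate from an intermediate of the tricarboxylic acid cycle, was 8.99, 8.56 and 8.80 FPKM in the low set and 27.9, 26.3 and 34.2 FPKM in the high set, a difference of 1.63. All high libraries were above all low and all male libraries, the latter at 4.71 to 7.66 FPKM. In all, 7 of the 25 were called higher and none lower. They included Xdh (0.93), of purine breakdown, Ass1 (0.59), of arginine synthesis, and Gch1 (0.57), which makes the cofactor of nitric oxide synthase. Nos2, the inducible synthase itself, was 0.221, 0.448 and 0.229 FPKM against 1.39, 2.57 and 2.47 FPKM and passed the level filter only through the high set. Arg1, which competes with it for arginine, overlapped at 7.09, 2.23 and 2.72 FPKM against 4.02, 6.29 and 13.9 FPKM. Among 27 tested genes of sterol and lipid handling 6 were called higher, and 1 of the 27 had passed the level filter only through the high set. Apoe, a lipoprotein ligand, was 489, 415 and 364 FPKM against 806, 718 and 833 FPKM (0.90), and Nr1h3, which encodes the oxysterol receptor LXR alpha, was 14.0, 14.1 and 13.5 FPKM against 29.5, 22.7 and 26.1 FPKM (0.86). Cholesterol synthesis had none of 20 genes called. Tfrc, the transferrin receptor that brings iron into the cell, was 293, 352 and 265 FPKM against 245, 193 and 186 FPKM (-0.54).

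Chemokine and macrophage genes were higher in the interferon-high set as well. Of 20 tested chemokine genes and receptors 14 were called higher, with a median of 0.82. Among the 20, 2 had passed the level filter only through the high set. Ccl5, a chemokine for T cells and monocytes, was 19.5, 14.6 and 16.8 FPKM in the low set and 89.2, 75.1 and 85.8 FPKM in the high set (2.24). Cxcl10 was 4.12, 12.5 and 5.30 FPKM against 29.1, 25.3 and 29.7 FPKM (1.93), with female control 3 again the highest of the low libraries. Of 17 tested inflammatory cytokines and related genes 12 were called higher, and 3 of the 17 had passed the level filter only through the high set. Il18 (0.89), Il15 (0.98) and Il1b (1.11) were among them, Tnf was separate by 0.24, and Il6 and Il10 were below the level filter.

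Of 29 tested macrophage genes 17 were called higher and none lower, with a median of 0.66. Among the 29, 1 had passed the level filter only through the high set. Siglec1, a sialic acid receptor of macrophages, was 6.35, 11.9 and 6.45 FPKM in the low set and 55.2, 53.1 and 59.6 FPKM in the high set (2.68). C1qa, a chain of complement C1q, was 64.4, 61.1 and 52.9 FPKM against 190.0, 150.1 and 208.8 FPKM (1.60), and C1qb (1.33) and C1qc (1.43) were called higher with it. The sets did not overlap for any of these genes. Some macrophage genes did not follow: Cd68 (0.01), Mrc1 (0.01) and Itgam (-0.06) overlapped. The summed level of the 30 matched macrophage genes was 10280 to 12770 FPKM in the high set, 7585 to 8739 FPKM in the low set and 5080 to 9126 FPKM in the male libraries.

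Marker lists of other bone marrow cells differed in part, and the summed levels of several overlapped between the sets. Of 22 genes of lymphocytes and NK cells only 6 passed the filter, 1 of them only through the high set. Of the 6, 5 were called higher, and the T cell genes Cd3e, Cd3d and Cd3g were below the filter. The summed level was 38.3 to 49.9 FPKM in the high set, 18.4 to 24.6 in the low set and 13.5 to 32.3 in the male libraries. Cd79a, of the B cell receptor, was 3.56, 4.61 and 2.20 FPKM against 7.86, 9.95 and 9.47 FPKM (1.21), with no overlap. Of 15 neutrophil genes 4 were called higher, and their sum was 2617 to 3281 FPKM in the high set and 1698 to 2762 in the low set, which overlap. Retnlg, a neutrophil granule gene, was 30.4, 24.3 and 18.6 FPKM against 58.1, 46.9 and 78.8 FPKM (1.29). The list for plasmacytoid dendritic cells summed to 512.5 to 611.5 FPKM against 163 to 231.8 FPKM, most of it Bst2, which is itself an interferon effector. Siglech, the surface marker of these cells, overlapped at 2.28, 3.90 and 2.07 FPKM against 3.27, 4.71 and 5.41 FPKM. Stromal genes summed to 4.81 to 9.45 FPKM against 3.85 to 6.20 FPKM, and erythroid and endothelial genes to 12.6 to 17.4 FPKM against 8.96 to 9.07 FPKM. Of the 4 erythroid and endothelial genes tested, 1 was called higher, Kdr, at 1.07, 2.98 and 1.20 FPKM against 5.65, 4.79 and 5.01 FPKM. Hba-a1 and Vwf overlapped. The dendritic cell list summed to 64.2 to 79.0 FPKM against 53.0 to 75.5 FPKM, and the mast cell, basophil and eosinophil list to 39.3 to 49.5 FPKM against 20.4 to 47.1 FPKM. One gene of the last list was at 0 in all 12 libraries, and none of the macrophage, neutrophil, lymphocyte, plasmacytoid, dendritic, stromal or erythroid and endothelial genes was. The part of these cells in the set differences was not tested.

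Outside the interferon lists, the genes with the largest differences also included Ly6i, Saa3 and Fgl2. Ly6i, a member of the Ly6 surface protein family, was 17.0, 18.9 and 10.4 FPKM in the low set and 79.0, 59.6 and 110.8 FPKM in the high set (2.35). Saa3, an acute phase protein, was 0.947, 1.27 and 0.842 FPKM against 6.83, 6.61 and 11.6 FPKM (2.18). Fgl2, a membrane prothrombinase, was 4.93, 5.52 and 3.52 FPKM against 20.6, 14.9 and 24.2 FPKM (1.88). None of these overlapped. The lower calls of largest size were Fn1, the matrix protein fibronectin, and Pls3, an actin-bundling protein. Fn1 was 17.6, 10.2 and 17.7 FPKM in the low set and 5.17, 7.36 and 9.44 FPKM in the high set (-0.95). Pls3 was 13.1, 12.2 and 10.1 FPKM against 6.93, 5.81 and 5.76 FPKM (-0.84). Male libraries spanned both sets for Fn1, at 4.83 to 21.8 FPKM, whereas for Pls3 all were above the high set, at 10.1 to 13.4 FPKM.

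Genes of cell division were lower. Mki67, a marker of cycling cells, was 43.6, 42.8 and 43.7 FPKM in the low set and 26.4, 32.5 and 25.2 FPKM in the high set (-0.62). Of 33 cell cycle genes 20 were separate and lower and 1, Pcna, was separate and higher, with 3 called lower and a median of -0.22. Genes of mitosis such as Tpx2 (-0.55) and Cenpf (-0.53) led, and the licensing factors Mcm2 (0.01) and Cdt1 (0.02) overlapped. The part of gene length and GC content in these differences was not tested.

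The promoter letters described at the start were counted by group of genes. GAAA, any 2 bases and GAAA was present on either strand in 3.44% of all 32851 promoters in the table and in 3.32% of those of tested genes. It was present in 36 of 85 promoters (42.4%) of called interferon effectors and GTPases and in 59 of 444 (13.3%) of called higher genes outside the interferon lists. Promoters of genes called lower held it in 0 of 56, and those of genes without a call in 257 of 10094 (2.55%). Among antigen presentation genes it was found in 3 of 11 class I promoters, 2 of 13 of peptide supply and 1 of 16 of class II, and in 4 of 68 promoters of osteoclast genes. A match of letters is not a bound site.

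The male libraries, which had no part in the rule, gave the one comparison that could be tested. They all had scores below the female low set. The male scores were 3.57, 3.43 and 4.05 in controls 1 to 3 and 3.58, 3.78 and 3.95 in knockouts 1 to 3, so the highest 2 were both of batch 3. Whether each gene followed this score, with genotype as a covariate, was tested by limma over 11436 genes without the 5 markers. No gene passed at a Benjamini-Hochberg adjusted p of 0.05 in either direction (0% called), and the lowest adjusted p was 0.275. At an unadjusted p under 0.05 there were 1073 genes, 462 with a positive and 611 with a negative slope. The voom fit on rebuilt fragments also gave 0 genes, with 1105 unadjusted, and there the balance of signs was the other way, with 654 positive and 451 negative. It was also the other way with the replicate block (161 positive and 86 negative) and without the 2 libraries farthest from the median score (525 and 294), with no level filter (1122 and 930) and without any 1 of the male controls.

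The signs of the male slopes are given as a description, since genes of 1 library share its errors. They come from the fit with genotype and without the replicate block, and the counts by list were not repeated in any other setting. Score and batch are therefore not separated in them. Among genes called higher in the female high set and outside the interferon lists, 386 of 493 (78.3%) had a positive slope in males, against 50.2% of all genes. Among those called lower, 65.4% of 81 were negative. All 13 MHC class I genes had positive slopes, with a median of 0.49 (log2 per unit of score), and 11 of 17 class II genes did, with a median of 0.08. Slopes of osteoclast genes were negative in 28 of 28 resorption genes (median -0.53) and in 12 of 14 fusion genes (median -0.50). This included Acp5 (-0.81) and Tcirg1 (-0.55), whose sets had overlapped in females. For the tricarboxylic acid cycle 22 of 25 were negative (median -0.21), and for oxidative phosphorylation 37 of 40 were (median -0.15). Cell cycle genes had the opposite sign to the females, with 28 of 33 positive (median 0.20). Neutrophil genes were positive in 15 of 15, with a median of 1.05, and macrophage genes in 27 of 28, with a median of 0.58. The part of those cells in the slopes was not tested.

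**Figure D5:**
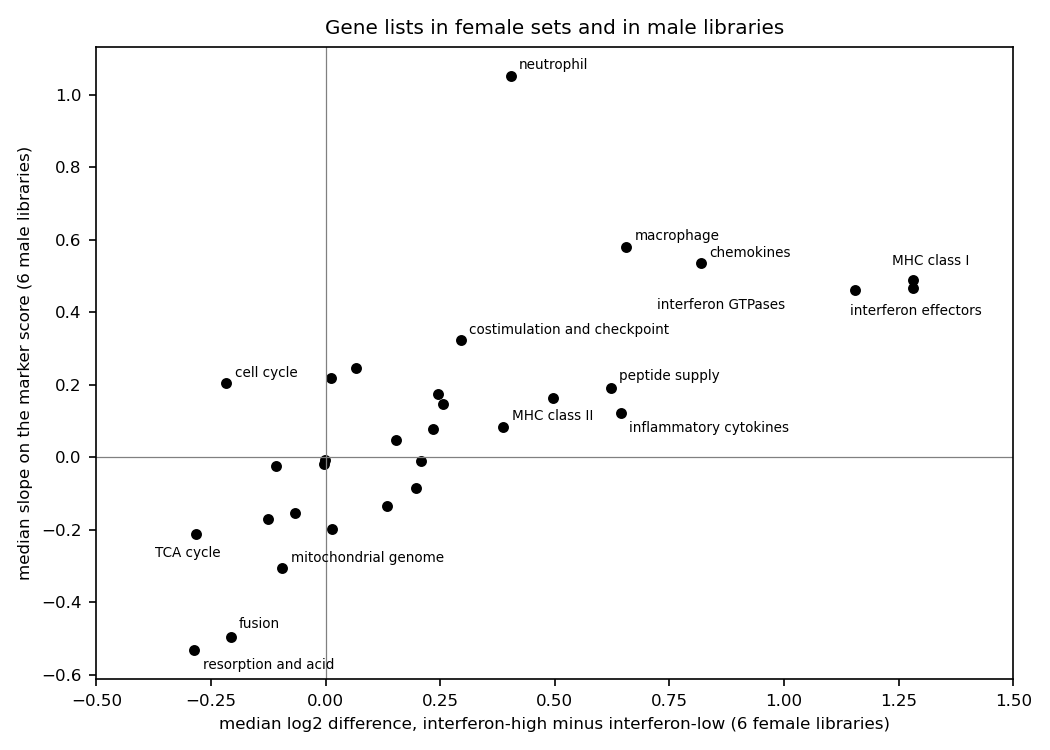
Median over each gene list of the log2 difference between female interferon-high and interferon-low sets (x axis) and of the slope on the 5-gene score in the 6 male libraries (y axis, log2 per unit of score), with 1 point per list of at least 10 genes. MHC class I, macrophage and chemokine lists lie in the upper right, resorption and fusion in the lower left, and cell cycle in the upper left; no single gene passed the adjusted test in males.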

How the data were processed

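RNA-seq gave 1 deposited table of FPKM per gene for 12 libraries. The authors' tools, per the submitters' processing notes, included featureCounts 1.5.0-p3 and HISAT2 2.0.5, the build named there is mm10, and the strand setting is not given in the sources used. Gene coordinates of the table are not printed, because their build is uncertain. In each library 100% of FPKM times length were whole multiples of 1 step within 0.01, from which fragments were rebuilt, and 3 fragments on a gene of 1 kb gave 0.119 to 0.188 FPKM (counting error only). There were 0 per-sample columns left unused, and 1 line of the table was emptied and was not used here.

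Differences used log2(FPKM + 1) with no test between the sets, because the sets were chosen on these values. The male slopes used limma 3.58.1 in R 4.3.3 (two-sided, trended moderated variance, genotype as covariate) and were tested on simulated data. Libraries with 1 number also carry 1 batch in the labels, so the numbers pair them by design; deviations of same-numbered male libraries correlated at -0.24, 0.12 and -0.10. Sequences and motif counts used Python 3.11.15, pandas 2.3.3 and numpy 2.4.6 on the RefSeq promoter table.

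The named genes were the 5 markers, the 15 protein-coding genes per direction outside the interferon lists with the largest difference among called genes with a mean of at least 2 FPKM in 1 set, and 4 members of each of 39 lists with the largest absolute difference. Other list members, and the subgroups of proton pump, RANK and adaptor genes, were picked for their role after their values were seen. The members and lists were chosen with earlier results of these data known. Alternatives varied the pseudocount, scaling, filter, call threshold, genotype weighting and libraries; bin medians of length and GC and each genotype alone were added after seeing the data.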

Additional observations from a re-analysis of the deposited data

How the results depend on the processing

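Among the named genes, no called gene reversed its direction in an alternative, and 2057 of 2197 values moved by less than the spread between libraries. A call requires separate sets, so its direction could not reverse with libraries left out or the pseudocount changed. The same holds with genotypes taken alone or averaged, so only the rescalings and the bin medians could have reversed it. Against 673 genes higher and 84 lower in the interferon-high set, the lower count was 182 with a pseudocount of 0.1, 190 with FPKM rescaled to one sum, 51 averaged over genotypes, 162 in knockout and 258 in control libraries alone, and 66 to 217 with 1 library left out, when the higher count was 658 to 899. Separate sets at any difference gave 2065 higher and 2403 lower, and a difference of at least 1 gave 221 and 4. The MHC class I median (1.28) was 1.43 with a pseudocount of 0.1 and 1.40 in knockouts alone. The resorption median (-0.29) was -0.36 with one sum, -0.20 averaged over genotypes, -0.15 in controls alone and -0.36 to -0.22 with 1 library left out, and the fusion median (-0.21) was -0.31 in knockouts alone. The median of RANK signalling and its transcription factors (0.01) was -0.064 with one sum, -0.068 with length and GC bin medians removed, -0.066 in knockouts alone, 0.080 in controls alone and -0.038 to 0.036 with 1 library left out. The tricarboxylic acid cycle median (-0.28) was -0.35 with one sum, -0.24 with length and GC bin medians removed, -0.24 in controls alone and -0.33 to -0.24 with 1 library left out. Oxidative phosphorylation (-0.07) was -0.14 with one sum, -0.11 in knockouts alone, 0.014 in controls alone and -0.13 to -0.032 with 1 library left out, and glycolysis (-0.00) was -0.22 in controls alone. The cause was not tested.

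The male slope test called 0 genes in every alternative run, with the lowest adjusted p from 0.067 (voom) to 0.9997 (replicate block). With the replicate number as a block it gave 0 genes and 247 at an unadjusted p under 0.05, and without 1 library 583 to 2093 unadjusted.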

Other observations

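Transcripts of the lysosome and of the immediate early response differed in the females beyond the lists above. Of 23 lysosomal genes 11 were separate and higher and 1 separate and lower, with a median difference of 0.13. Ctsh, a lysosomal aminopeptidase, was 15.8, 16.3 and 16.3 FPKM in the interferon-low set and 27.96, 24.6 and 34.0 FPKM in the interferon-high set, with no overlap. Of 19 immediate early and heat shock genes 4 were called higher, and Dusp1, a phosphatase of MAP kinases, differed by 1.18 and Egr1, a transcription factor, by 0.84. In males 16 of 23 lysosomal slopes were negative.

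Mitochondrial transcripts differed by gene. The ribosomal RNA mt-Rnr1 was 324, 328 and 295 FPKM in the low set and 483, 468 and 500.5 FPKM in the high set, and mt-Nd6, the light-strand subunit of complex I, was 1665, 1500 and 1407 FPKM against 1181, 1001 and 1012 FPKM. The sets did not overlap for either gene. The mitochondrial share of fragments was 2.80% to 3.09% in the high set and 3.16% to 3.27% in the low set.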
